A study of Mus with 14 samples.

Results

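Blood-forming cells of the Dnmt3a;Tnfr2KO genotype were compared with cells of the MxCre control genotype. The comparison used the 4 Dnmt3a;Tnfr2KO and 3 MxCre libraries of a series of 14, each library from 1 mouse, chosen by the genotype in the sample titles. A barcode was kept if it held 1000 or more unique molecular identifiers (UMIs), showed 500 or more genes and had a mitochondrial share of its UMIs below 10%, which left 40554 of the 70038 cells kept in the series. After predicted doublets were removed, 25427 Dnmt3a;Tnfr2KO cells and 13125 MxCre cells remained, and the mouse was the unit of replication throughout.

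All 7 mice were aged, lethally irradiated CD45.1+ secondary recipients of CD45.2+ bone marrow, and were harvested 20 weeks after transfer of 4000000 marrow cells. The grafts had first passed through primary recipients, where they were mixed with CD45.1+ competitor cells and where 1 injection of poly(I:C) was given. Lineage-negative, Kit-positive, CD45.2+ cells were sorted, and 12000 cells were loaded for each library of the droplet 3' assay. The MxCre group carries the Cre transgene alone by its label. The Dnmt3a;Tnfr2KO group differs from it in both named genes, so the parts of Dnmt3a and Tnfr2 cannot be told apart within this comparison. The labels name neither the Dnmt3a allele nor the deleted part of the Tnfr2 gene, and do not say whether mice of 1 genotype shared a marrow donor. The p-values therefore set the group differences against the spread between mice, some of which may have received the same graft. The other 2 genotypes of the series, Dnmt3a (4 libraries) and Dnmt3a;Tnfr1KO (3 libraries), entered the fits to estimate the spread, and their means are given beside some results.

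Tumor necrosis factor (TNF) is an inflammatory cytokine that binds 2 receptors. TNFR1, encoded by Tnfrsf1a, carries a death domain and signals to NF-kB and to cell death, while TNFR2, encoded by Tnfrsf1b, lacks that domain and recruits TRAF adaptors directly. Dnmt3a is a DNA methyltransferase whose loss or mutation in blood stem cells is among the commonest causes of clonal hematopoiesis, the outgrowth of 1 stem cell's progeny in aged marrow. The Mx1 promoter that drives Cre in this model responds to type I interferon and is active in many cell types besides blood cells, and poly(I:C) induces that interferon.

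The 7 libraries held 62416022 to 162869740 UMIs, and kept cells had a median of 15262 to 24454 UMIs. Any pair of these libraries shared between 2 and 17 cell barcodes. Expression of a gene is given as counts per 1000000 UMIs (CPM) of the summed cells of a mouse, scaled by edgeR's trimmed mean of M-values, and a gene was called when its adjusted p from edgeR's quasi-likelihood test was below 0.05. Kit, a gene of the sort, was at 107 ± 30.7 CPM (SD, n = 4) in Dnmt3a;Tnfr2KO and 131 ± 10.4 CPM (SD, n = 3) in MxCre cells and was not called. Of the 10 surface genes listed for the sort, Kit and lineage markers, 9 had a negative log2 fold change over all cells (median -1.30), 4 lay lower in Dnmt3a;Tnfr2KO without overlap, where 9.62% of all tested genes did. None was called by edgeR, and 1, the B cell gene Ms4a1, was called lower by DESeq2 and had an unadjusted p below 0.05 with edgeR. In the series, 2 libraries outside the comparison stood apart. Of the 7257 barcodes of Dnmt3a replicate 1, 5138 held fewer than 1000 UMIs, and leaving that library out did not move a count of calls by more than 1.5 times in any set tested. Dnmt3a replicate 4 gave 96.7 and 82.7% of the cells of the 2 B-lymphoid progenitor clusters, and leaving it out took the number of called genes from 71 to 137 over all cells and from 7 to 21 in erythroid progenitors.

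Tnfrsf1b, at chr4:145212368-145246870 in GRCm38, was lower in the Dnmt3a;Tnfr2KO libraries. Over all kept cells it was at 4.30, 5.44, 5.08 and 5.51 CPM in the 4 Dnmt3a;Tnfr2KO mice and at 11.7, 16.8 and 12.2 CPM in the 3 MxCre mice. The groups did not overlap, and the log2 fold change was -1.41 (SE 0.17, adjusted p = 0.00188). The Dnmt3a and Dnmt3a;Tnfr1KO groups, whose labels name no change in Tnfr2, had means of 13.7 and 13.3 CPM. The remaining signal is a count of 3' ends and does not show whether the transcript was complete, because a 3' tag can lie outside a deleted part.

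By cell class the loss of Tnfrsf1b signal was called in the 4 classes named below as stem and multipotent (HSC/MPP-like), early multipotent, granulocyte and monocyte progenitors. Its log2 fold change was -1.51 (adjusted p = 0.000923) in HSC/MPP-like cells, -1.44 (adjusted p = 0.00104) in early multipotent progenitors, -2.01 (adjusted p = 4.17e-06) in granulocyte progenitors and -1.88 (adjusted p = 3.01e-06) in monocyte progenitors. In megakaryocyte progenitors the mean was 5.35 against 7.54 CPM (adjusted p = 0.826), and in erythroid progenitors, where MxCre cells held the gene at 2.90 CPM, Dnmt3a;Tnfr2KO cells held it at 3.72 CPM.

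Dnmt3a, Tnfrsf1a and Tnf did not pass the test over all cells. Dnmt3a transcripts were at 23.8 ± 1.19 CPM (SD, n = 4) in Dnmt3a;Tnfr2KO and 24.6 ± 3.25 CPM (SD, n = 3) in MxCre mice, a log2 fold change of -0.05 (adjusted p = 0.801). The 3' count of Dnmt3a thus gave no check of that allele. Tnfrsf1a, the other TNF receptor, was at 54.9 ± 12.1 CPM (SD, n = 4) against 42.1 ± 4.02 CPM (SD, n = 3; adjusted p = 0.338), and Tnf itself at 1.77 ± 0.448 CPM (SD, n = 4) against 2.75 ± 0.537 CPM (SD, n = 3; adjusted p = 0.470).

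Over all cells, 71 of 15626 tested genes (0.454%) were called, 31 higher (0.198%) and 40 lower (0.256%) in Dnmt3a;Tnfr2KO. Many of the higher genes lay beside Tnfrsf1b on chromosome 4. Of the 200 tested genes nearest to it, 100 on each side, 17 were called (8.5%), 15 of them higher and 2 lower. Of the 14409 other tested genes with a known position, 50 were called (0.347%). The 2 sides differed: 1 of the 100 genes at lower coordinates and 16 of the 100 at higher coordinates, out to 10.0 Mb, were called.

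Zfp990, a zinc-finger gene of this stretch, was at 12.3, 13.5, 30.7 and 25.2 CPM in the Dnmt3a;Tnfr2KO mice and at 0.0779, 0.0837 and 0.143 CPM in the MxCre mice, a log2 fold change of 7.66 (SE 0.57, adjusted p = 1.51e-05). It was at 0.113 CPM in Dnmt3a and 0.0762 CPM in Dnmt3a;Tnfr1KO mice. The stretch holds several zinc-finger genes, among them Zfp534, Zfp980 and Zfp992. How reads shared by similar genes were counted was not tested.

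Dhrs3, a retinaldehyde reductase gene 0.32 Mb before Tnfrsf1b, was at 38.6, 32.8, 27.3 and 48.8 CPM in Dnmt3a;Tnfr2KO and at 11.4, 11.6 and 11.1 CPM in MxCre mice, with no overlap (log2 fold change 1.70, SE 0.23, adjusted p = 0.00398). The Dnmt3a and Dnmt3a;Tnfr1KO means were 17.4 and 17.99 CPM. Tnfrsf14, which encodes the TNF receptor family member HVEM, was at 9.23, 7.29, 8.85 and 8.14 CPM against 1.51, 1.69 and 1.31 CPM, a log2 fold change of 2.48 (SE 0.26). Every Dnmt3a;Tnfr2KO value was above every MxCre value.

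The other called neighbours that were higher included Arhgef16, Angptl7, Cort, Errfi1, A430005L14Rik, Dffb, Lrrc47 and Slc25a33, with log2 fold changes from 3.77 for Arhgef16 down to 0.85 for Slc25a33. With 1 of the 7 libraries left out, Angptl7 lost its call without any 1 of the MxCre mice or Dnmt3a;Tnfr2KO replicate 1 or 3, Arhgef16 without MxCre replicate 1 or 3 or Dnmt3a;Tnfr2KO replicate 3 or 4, Slc25a33 without MxCre replicate 2 or 3, Cort without MxCre replicate 2, and Errfi1 and Lrrc47 without MxCre replicate 3. Lrrc47 also lost it with library totals as the scaling (adjusted p = 0.0590). Arhgef16 and Angptl7 also lost it with the replicate block. The 2 that were lower were Fbxo44 and Fbxo2, adjacent F-box genes of ubiquitin ligases; Fbxo44 was at a mean of 0.114 CPM against 1.68 CPM, and Fbxo2 lost its call without any 1 of the 7 mice. Just past the window, at more than 10 Mb from Tnfrsf1b, 4 further called genes were lower, Atad3aos, Tnfrsf18, Pusl1 and C1qtnf12, of which Tnfrsf18 lost its call without MxCre replicate 3 (adjusted p = 0.0786). Pusl1, a pseudouridine synthase-like gene, was at 7.20, 6.22, 4.23 and 5.24 CPM in Dnmt3a;Tnfr2KO and at 26.5, 20.2 and 21.4 CPM in MxCre mice (log2 fold change -1.99, SE 0.19, adjusted p = 0.000241). C1qtnf12, which encodes a secreted C1q/TNF-related protein, was at 8.16, 7.86, 15.0 and 16.1 CPM against 60.7, 46.6 and 46.9 CPM (log2 fold change -2.13, SE 0.33, adjusted p = 0.00938). For Pusl1 the Dnmt3a and Dnmt3a;Tnfr1KO means, 22.5 and 24.8 CPM, were near the MxCre mean of 22.7 CPM. Within 12 Mb of Tnfrsf1b, 21 of 277 tested genes were called.

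**Figure D1:**
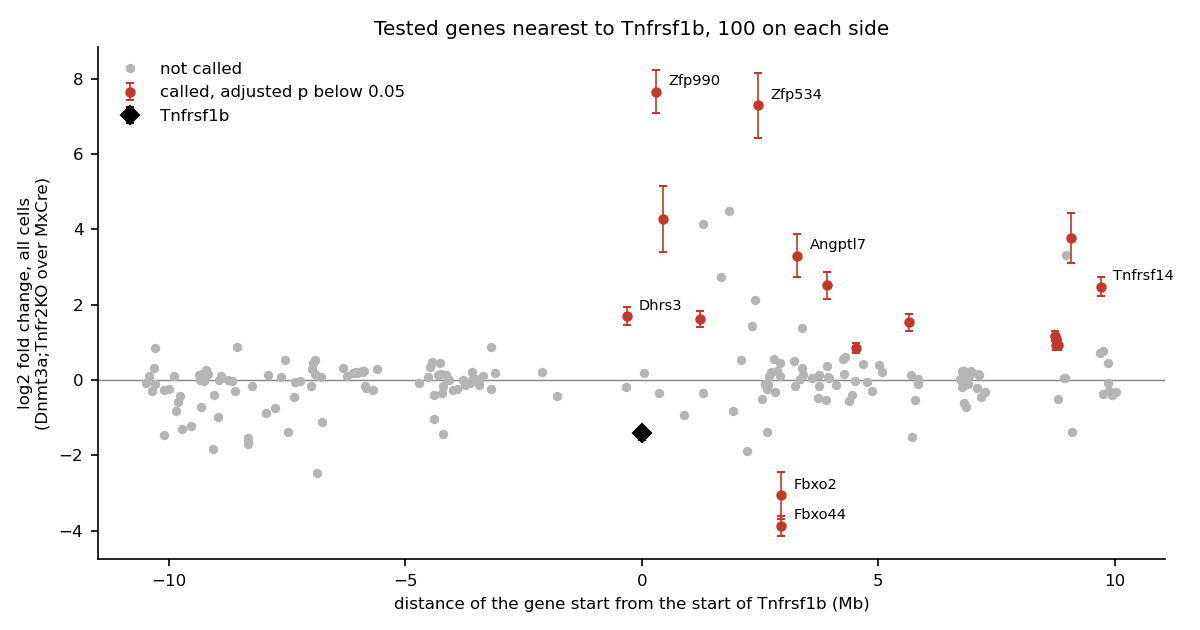
Log2 fold change (Dnmt3a;Tnfr2KO minus MxCre, all kept cells, y axis) of tested genes against their distance from Tnfrsf1b on chromosome 4 in Mb (x axis), with the standard error drawn for called genes. Of the called genes among the 200 nearest, 16 lie on the side of higher coordinates and 15 are higher in Dnmt3a;Tnfr2KO.

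The neighbours were also called within classes. In HSC/MPP-like cells 18 of 156 tested neighbours were called (10 higher, 8 lower), where 4.02% of all tested genes were. The counts were 15 of 167 in early multipotent progenitors (all genes 0.303%), 15 of 164 in granulocyte progenitors (0.328%), 13 of 164 in monocyte progenitors (0.259%) and 7 of 130 in megakaryocyte progenitors (0.389%). In erythroid progenitors 2 of 152 were called (0.063%) and in basophil/mast progenitors 2 of 112 (0.0803%). The labels do not give the strain in which Tnfr2 was targeted, and whether the sequence of this stretch differed between the groups was not tested.

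The cells of all 14 libraries were clustered together and 12 classes were named from stated markers. Clusters that no marker list fitted, or whose markers pointed to different classes, were left unnamed. Early multipotent and monocyte progenitors took a larger share of the sorted cells in every Dnmt3a;Tnfr2KO mouse than in any MxCre mouse, and megakaryocyte progenitors and mature B cells a smaller one. With 4 mice against 3 the exact permutation test cannot go below p = 0.0286, and no share passed the 0.05 threshold after adjustment over the 12 classes.

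Early multipotent progenitor-like cells, with Tespa1 and Cd34 among their leading genes, made up 19.5, 19.5, 23.7 and 22.3% of cells in the Dnmt3a;Tnfr2KO mice and 17.5, 9.36 and 10.5% in the MxCre mice. The groups did not overlap, and the means differed by 8.81 percentage points (exact permutation p = 0.0286, two-sided, adjusted p = 0.0857). Monocyte progenitor-like cells were at 24.8, 16.3, 16.8 and 16.7% against 11.4, 11.1 and 6.30%, a difference of 9.03 points with the same p. The highest value came from Dnmt3a;Tnfr2KO replicate 1, and the other 3 mice were also above all MxCre mice.

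Megakaryocyte progenitor-like cells, the platelet lineage, were at 5.30, 5.87, 4.67 and 2.13% in Dnmt3a;Tnfr2KO and at 7.49, 9.40 and 15.6% in MxCre mice, a difference of -6.32 points (exact permutation p = 0.0286, adjusted p = 0.0857). This difference was -3.95 points without MxCre replicate 3 and -11.03 points with finer clusters (Leiden resolution 2). Mature B cell-like cells, which the sort should largely remove, were at 0.082 to 0.142% against 0.392 to 1.06% and did not overlap. With those finer clusters the mature B cell difference went from -0.581 to -0.207 points (exact permutation p = 0.457). Granulocyte progenitor-like cells were at 22.004 ± 4.7% (SD, n = 4) against 13.6 ± 4.3% (SD, n = 3; exact permutation p = 0.0857). HSC/MPP-like cells were at 8.25, 10.8, 5.94 and 16.1% against 12.6, 13.7 and 25.1% and overlapped (difference -6.84 points, exact permutation p = 0.200), and the difference was -2.87 points without MxCre replicate 3. With the finer clusters it was -7.63 points (exact permutation p = 0.0286, adjusted p = 0.0857). In the Dnmt3a and Dnmt3a;Tnfr1KO groups, early multipotent progenitors had mean shares of 16.3 and 17.6%, monocyte progenitors 13.6 and 21.8%, and megakaryocyte progenitors 3.15 and 2.88%.

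**Figure D2:**
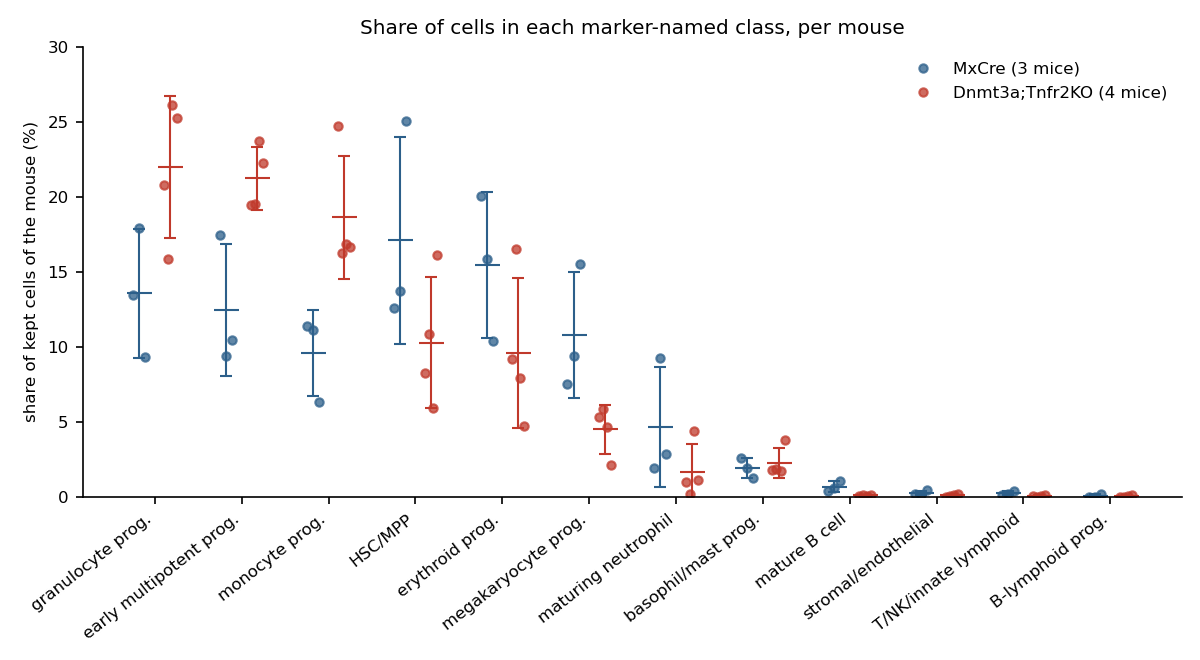
Share of kept cells (percent, y axis) in each named class, 1 point per mouse, with the mean ± SD of the 4 Dnmt3a;Tnfr2KO and 3 MxCre mice. The early multipotent and monocyte progenitor points of Dnmt3a;Tnfr2KO lie above all MxCre points and its megakaryocyte progenitor points lie below them.

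An unnamed cluster led by Pf4, Ms4a2, Cavin2, Itga2b and Gata2, genes of platelet and mast cell precursors, held 3.54 to 8.14% of cells in Dnmt3a;Tnfr2KO and 9.25 to 15.7% in MxCre mice. Another unnamed cluster, led by Gm42418 and Lars2 and low in UMIs per cell, held 0.688 to 4.05% against 0.045 to 0.324%. Shares sum to a fixed total, and shares of sorted cells do not give numbers of cells per mouse.

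Called genes over all cells also lay on other chromosomes. Ckm, the muscle creatine kinase, was at 215, 166, 85.4 and 119.7 CPM in Dnmt3a;Tnfr2KO and at 6.75, 10.1 and 6.38 CPM in MxCre mice (log2 fold change 4.25, SE 0.46, adjusted p = 0.000822). The lowest Dnmt3a;Tnfr2KO mouse was far above the highest MxCre mouse. The Dnmt3a;Tnfr1KO mean was 178 CPM and the Dnmt3a mean 11.95 CPM, so the 2 genotypes with a receptor knockout had the high values. Gm43305, an uncharacterized gene, was at 51.3, 41.1, 39.7 and 41.6 CPM against 2.11, 2.65 and 9.63 CPM (log2 fold change 3.18, SE 0.45, adjusted p = 0.00529). For this gene the Dnmt3a mean was 37.5 and the Dnmt3a;Tnfr1KO mean 20.3 CPM.

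Serpinf1, which encodes the secreted serpin PEDF, was at 40.7, 38.5, 32.5 and 31.7 CPM in Dnmt3a;Tnfr2KO and at 15.8, 14.1 and 12.6 CPM in MxCre mice (log2 fold change 1.34, adjusted p = 0.00665). It lost its call without MxCre replicate 2 or 3, with a highest adjusted p of 0.0679. Serpinf1 was not called within any tested class. It was among the leading genes of a monocyte progenitor-like cluster, and that class had a larger share in Dnmt3a;Tnfr2KO mice, as given above. The part of the class shares in its summed value was not tested. Mnd1, a meiotic recombination factor, was at 57.9 ± 6.86 CPM (SD, n = 4) against 27.9 ± 1.09 CPM (SD, n = 3; log2 fold change 1.05, adjusted p = 0.00244), with 28.7 CPM in Dnmt3a and 64.5 CPM in Dnmt3a;Tnfr1KO mice.

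Among lower genes, Iigp1, an interferon-inducible GTPase, was at a mean of 1.36 CPM against 8.89 CPM (log2 fold change -2.71, adjusted p = 0.0213), a call lost in 5 of 22 alternatives. Tnip3, which encodes a binding partner of the NF-kB inhibitor A20, was at 2.07 against 11.5 CPM (log2 fold change -2.47, adjusted p = 0.00902), a call lost without MxCre replicate 3 (adjusted p = 0.0583). Cd9, a tetraspanin of megakaryocytes and stem cells, was at 57.4, 61.9, 64.1 and 59.8 CPM against 107, 119 and 136 CPM (log2 fold change -0.99, adjusted p = 0.0437), a call kept in 13 of 22 alternatives. Within the tested classes Cd9 was not called in any, and megakaryocyte progenitors had a smaller share in Dnmt3a;Tnfr2KO mice, as given above. The part of the class shares in the Cd9 value was not tested. Plec, the cytolinker plectin, was at 24.1 ± 1.49 CPM (SD, n = 4) against 44.5 ± 2.80 CPM (SD, n = 3; log2 fold change -0.88). Tie1 and Pdzk1ip1, genes active in stem and endothelial cells, were also lower, at 4.54 against 10.1 CPM and 7.42 against 21.9 CPM. The calls of Plec, Tie1 and Pdzk1ip1 held in 15, 16 and 12 of 22 alternatives and were lost with the replicate block (adjusted p = 0.0682, 0.0578 and 0.0528) and without MxCre replicate 2 or 3, that of Pdzk1ip1 without any 1 of the 7 mice. Of the 35 called genes singled out over all cells, 17 kept their call with each of the 7 libraries left out in turn, and 17 lost it without MxCre replicate 3.

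Mtus2, a microtubule-associated gene chosen after its values were seen, was at 0.0256, 0.0138, 0.0197 and 1.75 CPM in Dnmt3a;Tnfr2KO and at 22.5, 21.6 and 13.5 CPM in MxCre mice. The groups did not overlap, but the adjusted p over all cells was 0.126, with Dnmt3a;Tnfr2KO replicate 4 well above the other 3. The Dnmt3a and Dnmt3a;Tnfr1KO means were 0.0819 and 0.743 CPM.

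Of the gene lists, only Tnfrsf1b, Cd9 and Iigp1 were called over all cells. All 40 oxidative phosphorylation genes had a positive log2 fold change, with a median of 0.23 against 0.00 over all genes. None of them was called by edgeR or DESeq2, and 6 had an unadjusted p below 0.05, where 2439 of 15626 tested genes did. Platelet and megakaryocyte genes had negative values in 23 of 24 tested members (median -1.29), and 21 members lay lower without overlap, where 9.62% of all genes did. Stem cell regulators were negative in 28 of 30 (median -0.87), with 15 lower without overlap. An unadjusted p below 0.05 was found for 18 of the 30, where 2439 of 15626 tested genes had one. EdgeR called none of the 30 and DESeq2 called 4. Interferon response genes were negative in 35 of 42 (median -0.36), with 19 lower and 1 higher without overlap. EdgeR called 1 of the 42, Iigp1, and DESeq2 called 5. The 34 TNF receptor signalling genes had a median of 0.03, the 39 NF-kB genes -0.13 and the 20 DNA methylation genes 0.01. Of these, 4, 9 and 1 lay lower without overlap, where 9.62% of all genes did, and 2, 0 and 1 lay higher. Neither edgeR nor DESeq2 called any member of the TNF receptor signalling, NF-kB or DNA methylation lists. An unadjusted p below 0.05 was found for 5, 3 and 3 of them, beside 2439 of 15626 over all genes. These summed values move with the class shares given above, and their part in them was not tested.

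Within classes, a small set of genes differed in most lineages. Ckm was called in each of the 7 classes tested, with log2 fold changes of 4.51 in HSC/MPP-like, 3.81 in early multipotent, 3.86 in granulocyte, 3.65 in monocyte, 4.19 in megakaryocyte, 3.40 in erythroid and 3.59 in basophil/mast progenitors. The erythroid call (adjusted p = 0.0423) held in 10 of 22 alternatives. Pusl1 was lower in early multipotent (log2 fold change -2.13), granulocyte (-2.29) and monocyte (-2.25) progenitors, and was also called lower in HSC/MPP-like cells and megakaryocyte progenitors. C1qtnf12 differed most in erythroid progenitors, where it was at a mean of 25.01 CPM against 197 CPM (log2 fold change -2.99, adjusted p = 0.00699). That call held in 20 of 22 alternatives. It was lost without MxCre replicate 1 (adjusted p = 0.0615) and without Dnmt3a;Tnfr2KO replicate 1.

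Mtus2 was called lower in 5 of the 6 classes in which it was tested, with log2 fold changes of -6.11 in HSC/MPP-like, -5.35 in early multipotent, -6.04 in granulocyte, -5.34 in megakaryocyte and -7.32 in erythroid progenitors. In monocyte progenitors the value was -4.76 and the adjusted p was 0.0544. DESeq2 did not call Mtus2 in granulocyte (adjusted p = 0.474) or megakaryocyte progenitors (adjusted p = 0.897). Without MxCre replicate 1 the early multipotent and erythroid calls were lost (adjusted p = 0.0768 and 0.0615), and without Dnmt3a;Tnfr2KO replicate 1 the erythroid call (adjusted p = 0.0532). Gm43305 was called higher in all classes but the erythroid one, where the adjusted p was 0.408. Its early multipotent call (adjusted p = 0.0412) held in 7 of 21 alternatives, with a highest adjusted p of 0.297, and its granulocyte and monocyte calls were lost without MxCre replicate 2 (adjusted p = 0.0663 and 0.109). All 3 of these calls were also lost in the fit of the 7 libraries alone (adjusted p = 0.133, 0.0558 and 0.0779). The monocyte call and the basophil/mast call were also lost without MxCre replicate 1 (adjusted p = 0.0757 and 0.0558).

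**Figure D3:**
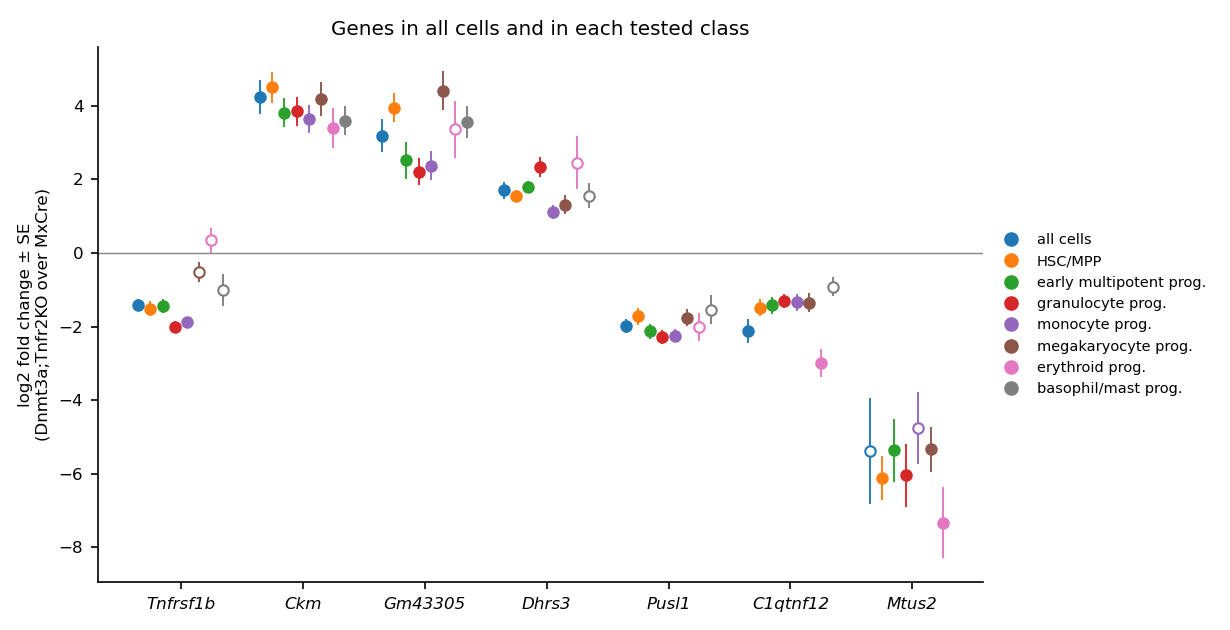
Log2 fold change ± SE (Dnmt3a;Tnfr2KO minus MxCre) of 7 genes in all cells and in each tested class. Filled points were called. Ckm and Gm43305 lie above zero in all sets, Mtus2 and Pusl1 below.

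The HSC/MPP-like class gave the most calls. It held 599, 610, 362 and 1038 cells in the Dnmt3a;Tnfr2KO mice and 740, 385 and 1114 in the MxCre mice. Of 11803 tested genes, 475 were called (4.02%), 171 higher (1.45%) and 304 lower (2.58%). The class consisted of 2 clusters. The one led by Hlf, Ctla2a, Ly6a and Mecom held 52.3 to 57.6% of the class in Dnmt3a;Tnfr2KO and 65.1 to 80.6% in MxCre mice. The other, led by Hlf together with the mitotic genes Cenpf, Cenpa and Ccnb2, held the rest, a mean of 45.3% of the class in Dnmt3a;Tnfr2KO and 25.01% in MxCre mice. By its marker score this second cluster was closest to the early multipotent progenitors, although its leading gene Hlf placed it here, so the class mixes cells in proportions that differ between the groups. Within the Hlf and Mecom cluster alone, 132 of 10986 genes (1.2%) were called, 118 of them also called in the whole class. The count for the class was 91 without MxCre replicate 3, 160 without MxCre replicate 2 and 839 without MxCre replicate 1. Of the 60 called genes singled out in the class, 16 kept their call with each of the 7 libraries left out in turn, 42 lost it without MxCre replicate 3, 37 without MxCre replicate 2 and 34 in the Hlf and Mecom cluster alone.

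MHC class II genes, which present peptides to CD4 T cells, were lower in part in this class. Of 10 tested members 5 were called lower and none higher, where 2.58% of all genes tested in the class were called lower. The median log2 fold change was -0.57 against 0.00 over all genes. With 1 library left out 3 or 4 members were called lower, the count being 3 without MxCre replicate 1 or 2 or Dnmt3a;Tnfr2KO replicate 1, and the median was -0.31 without MxCre replicate 1. Cd74, the invariant chain that guides class II molecules, was at 4.60, 4.29, 4.91 and 4.34 CPM in Dnmt3a;Tnfr2KO and at 71.3, 52.6 and 56.1 CPM in MxCre mice (log2 fold change -3.75, SE 0.43, adjusted p = 6.87e-05). All Dnmt3a;Tnfr2KO mice lay within a narrow range far below the MxCre mice. The Dnmt3a and Dnmt3a;Tnfr1KO means were 11.5 and 26.1 CPM.

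H2-Eb1, a class II beta chain, was at 1.72, 3.45, 1.40 and 3.35 CPM against 46.0, 30.9 and 25.04 CPM (log2 fold change -3.63, SE 0.35, adjusted p = 1.62e-05). H2-Aa, the alpha chain, was at 5.75, 4.63, 7.01 and 7.94 CPM against 61.4, 37.1 and 35.3 CPM (log2 fold change -2.82, SE 0.30, adjusted p = 4.38e-05). Neither gene overlapped between groups. Both, and Cd74, were called in all 23 alternatives, including the Hlf and Mecom cluster alone. In that cluster 3 of 8 tested class II members were called lower, where 1.2% of all tested genes were called. Ciita, the transactivator of class II genes, was at 0.956 against 2.45 CPM (log2 fold change -1.33, adjusted p = 0.0273), a call lost without any 1 of the MxCre mice.

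Over all cells, Cd74 was at 36.3 ± 22.5 CPM (SD, n = 4) against 37.1 ± 10.9 CPM (SD, n = 3; adjusted p = 0.983) and was not called. Mature B cells also express class II genes. Of 7 mature B cell markers 3 were tested in the class, and 2 of these are Cd74 and H2-Aa themselves. The other, Cr2, was at 0.558 to 1.58 CPM against 1.40 to 2.05 CPM, overlapped between groups and was not called (adjusted p = 0.463). The defining B cell markers Cd79a and Ms4a1 were below the filter of the test in this class. Macrophages, which also carry class II molecules, had the summed level of 6 of 10 tested markers at 4.91 to 12.4 CPM against 15.2 to 19.4 CPM without overlap (median log2 fold change -1.10), and edgeR called none of the 6. An unnamed cluster led by Cd74, H2-Aa, H2-Eb1, Lgals3 and H2-Ab1 scored highest for dendritic cell progenitors. It held 0.622 to 1.23% of cells in Dnmt3a;Tnfr2KO and 1.06 to 1.28% in MxCre mice. The part of RNA from B cells, macrophages or that cluster in the result was not tested.

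Interferon response genes were lower in part: 9 of 41 tested members were called lower and none higher (median log2 fold change -0.39). Over all genes tested in the class 2.58% were called lower. Iigp1 was at 11.6, 10.1, 4.91 and 6.89 CPM against 49.5, 32.2 and 39.6 CPM (log2 fold change -2.25, SE 0.24, adjusted p = 4.61e-05) and was called in all 23 alternatives. The groups did not overlap. Ifi44, Zbp1 and Rsad2 were called with log2 fold changes of -1.40, -1.01 and -0.90. In the Hlf and Mecom cluster alone 2 members were called, where 1.2% of all tested genes were. With 1 library left out, 3 to 7 members were called lower, the fewest without MxCre replicate 3. Of 18 MHC class I genes, H2-T23 and H2-Q7 were called lower, with log2 fold changes of -0.67 and -0.57, and neither was called without MxCre replicate 2 or 3 or in that cluster alone.

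Platelet and megakaryocyte genes were called lower in 9 of 19 tested members, with a median of -0.97 and none higher. Of all genes tested in the class 2.58% were called lower. Pf4, the platelet chemokine, was at 11.1, 10.3, 7.95 and 13.1 CPM against 49.6, 59.3 and 43.8 CPM (log2 fold change -2.22, SE 0.25, adjusted p = 5.39e-05). Gp9, a subunit of the platelet receptor for von Willebrand factor, was at 4.46, 4.04, 5.61 and 6.52 CPM against 11.7, 13.1 and 18.8 CPM (log2 fold change -1.49, SE 0.22, adjusted p = 0.00133). In both cases the MxCre mice stood above all Dnmt3a;Tnfr2KO mice. Cavin2, a caveolar gene of the megakaryocyte lineage, had 5 UMIs in the Dnmt3a;Tnfr2KO cells of the class and 257 in the MxCre cells (adjusted p = 0.00262). In the Hlf and Mecom cluster alone 3 of these genes were called, with a median of -0.56, and between 3 and 11 members were called when a library was left out, 3 without MxCre replicate 2 or 3 and 11 without MxCre replicate 1.

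Stem cell regulators, genes tied to the self-renewal and identity of hematopoietic stem cells, were called lower in 11 of 30 members and higher in none (median -0.67). Of all genes tested in the class 2.58% were called lower. The list shares most of the 12 HSC/MPP markers used to name the class. Of these markers 6 were called lower: Fgd5, Procr, Mllt3, Esam, Meis1 and Angpt1. Slamf1, which encodes the stem cell surface marker CD150, was at 6.32, 2.95, 1.64 and 2.98 CPM against 6.83, 10.4 and 14.1 CPM (log2 fold change -1.58, SE 0.41, adjusted p = 0.0370). Procr, encoding the endothelial protein C receptor EPCR and given here after its values were seen, was at 9.92, 10.0, 13.8 and 18.6 CPM against 20.5, 44.0 and 42.1 CPM (log2 fold change -1.41, adjusted p = 0.0136). Neither overlapped, with the lowest MxCre value in replicate 1 for both.

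Esam, an adhesion molecule of stem cells, was at 17.97, 13.9, 20.6 and 24.3 CPM against 28.6, 36.2 and 45.1 CPM (log2 fold change -0.93, adjusted p = 0.0295). Meis1, a homeobox cofactor of Hox proteins that was also chosen after its values were seen, was at 136, 144, 108 and 109 CPM against 152, 196 and 215 CPM (log2 fold change -0.60, adjusted p = 0.0214). Hlf, at -0.41 (adjusted p = 0.408), and Mecom, at -0.82 (adjusted p = 0.0984), did not pass. In the Hlf and Mecom cluster alone edgeR called none of the 30, where the median was -0.31 and 11 had an unadjusted p below 0.05. In the whole class it called none lower without MxCre replicate 3, 1 without MxCre replicate 2 and 15 without MxCre replicate 1, and 7, 6, 5 and 5 without Dnmt3a;Tnfr2KO replicates 1 to 4. In the Dnmt3a and Dnmt3a;Tnfr1KO groups Esam had means of 12.5 and 12.1 CPM, and Slamf1 4.499 and 3.74 CPM.

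Some myeloid genes were higher in the same class. Of the primary granule genes, which encode the proteases and peroxidase of immature granulocytes, 3 of 12 were called higher and none lower (median 1.12). Over all genes tested in the class 1.45% were called higher. Ctsg, encoding cathepsin G, was at 935, 949, 1586 and 1388 CPM against 712, 439.6 and 213 CPM (log2 fold change 1.42, SE 0.34, adjusted p = 0.0272). Prtn3, encoding proteinase 3, was at 1783 ± 349 CPM (SD, n = 4) against 856 ± 224 CPM (SD, n = 3; log2 fold change 1.06, adjusted p = 0.00926). Mpo and Elane had values of 1.19 and 1.46 and did not pass (adjusted p = 0.0615 and 0.0779). In the Hlf and Mecom cluster alone edgeR called none of the 12, the median was 0.59 and 7 had an unadjusted p below 0.05. The count was 0 without MxCre replicate 2 or 3, 1 without Dnmt3a;Tnfr2KO replicate 3 and 6 without MxCre replicate 1.

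Cebpd, a C/EBP transcription factor of myeloid cells, was at 17.7, 18.9, 46.8 and 26.6 CPM against 10.2, 10.9 and 7.33 CPM (log2 fold change 1.52, SE 0.31, adjusted p = 0.00955). Irf8, a transcription factor of monocyte and dendritic cell fate, was at 26.3, 29.8, 24.8 and 19.4 CPM against 12.9, 10.6 and 6.49 CPM (log2 fold change 1.33, adjusted p = 0.0122). The groups did not overlap for either, and Irf8 lost its call in the Hlf and Mecom cluster alone. Of 16 myeloid transcription factors 4 were called higher, Cebpa and Zeb2 being the others, and Id2 was called lower. Of all genes tested in the class 1.45% were called higher and 2.58% lower. In the Hlf and Mecom cluster alone 1 of 14 was called higher and none lower, and with 1 library left out 0 to 5 were called higher, none without MxCre replicate 3 and 1 without MxCre replicate 2.

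Of 18 monocyte genes, Ccr2, Tyrobp and Emb were called higher and S100a4 lower, with a median of 0.82. Over all genes tested in the class 1.45% were called higher and 2.58% lower. In the Hlf and Mecom cluster alone edgeR called none of 13 either way, the median was 0.52 and 5 had an unadjusted p below 0.05. With 1 library left out, 0 to 6 members were called higher, none without MxCre replicate 2 or 3.

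The lymphoid priming list had 2 of 13 members called higher, Satb1 among them, with a median of 0.06. Of all genes tested in the class 1.45% were called higher. Satb1, a chromatin organizer of lymphoid progenitors, was at 32.3, 41.9, 46.8 and 31.4 CPM against 12.3, 16.7 and 12.3 CPM (log2 fold change 1.48, SE 0.28, adjusted p = 0.00762). The groups did not overlap, and Satb1 was also called in the Hlf and Mecom cluster alone but not without MxCre replicate 3 (adjusted p = 0.0718). In the Dnmt3a and Dnmt3a;Tnfr1KO groups Satb1 had means of 46.7 and 52.7 CPM.

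**Figure D4:**
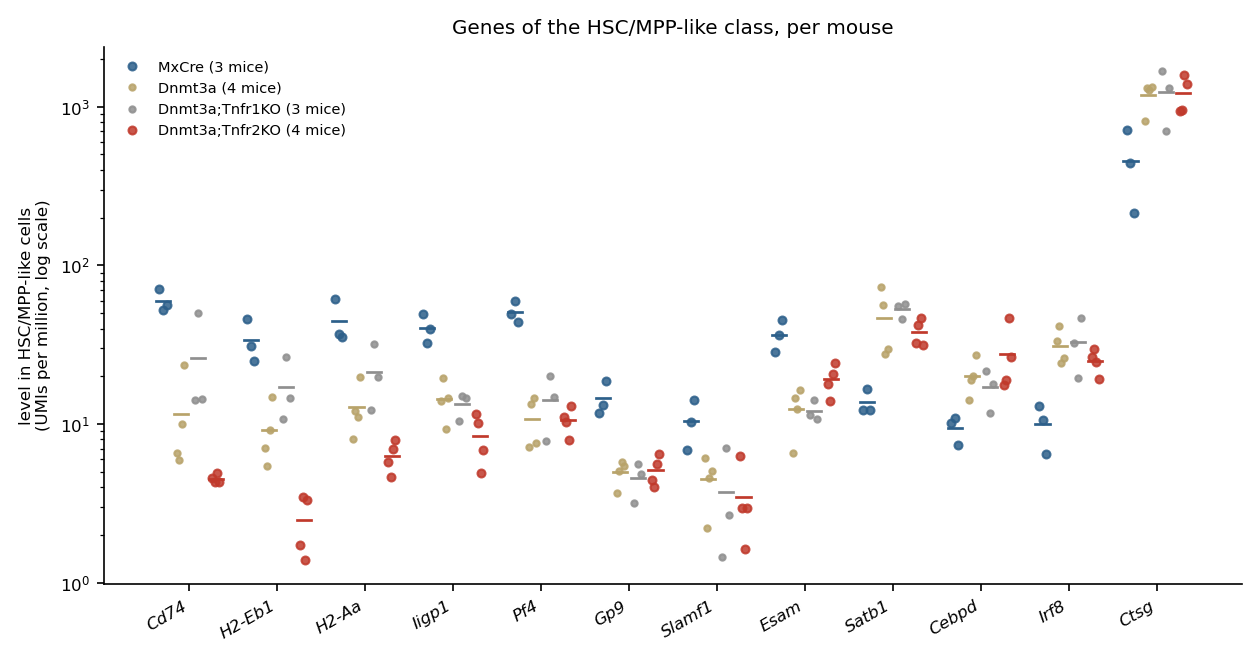
CPM per mouse (log axis) of 12 genes in the HSC/MPP-like class, 1 point per mouse in all 4 groups, with bars at the group means. The Dnmt3a;Tnfr2KO points of Cd74, H2-Eb1, H2-Aa, Iigp1 and Pf4 lie below all MxCre points, and those of Satb1, Cebpd and Irf8 above them.

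All 45 genes of the G2 and M phases had positive log2 fold changes in this class (median 0.53). Of these 11 were called higher, where 1.45% of all tested genes were. Mki67, the proliferation marker Ki-67, was at 307, 235, 278 and 268 CPM against 199, 133 and 149.9 CPM (log2 fold change 0.76, adjusted p = 0.0109), and Cenpe, a mitotic motor protein, at 104 ± 9.10 CPM (SD, n = 4) against 59.4 ± 15.1 CPM (SD, n = 3; log2 fold change 0.80). In the Hlf and Mecom cluster alone edgeR called none of 43, 2 had an unadjusted p below 0.05, 23 were positive and the median was 0.03. For the whole class the count was also 0 without MxCre replicate 2 or 3, 29 without MxCre replicate 1, and 7, 6, 5 and 5 without Dnmt3a;Tnfr2KO replicates 1 to 4. The mitotic cluster, whose leading genes Cenpf, Cenpa and Ccnb2 belong to this list, held more of the class in Dnmt3a;Tnfr2KO mice, as given above. Its part in these values was not tested. Of the 42 S phase genes (median -0.03) edgeR called none and DESeq2 called 2. An unadjusted p below 0.05 was found for 6 of them, where 2160 of 11803 genes tested in the class had one. Of 13 tested CDK inhibitor and D cyclin genes 1 was called higher and 3 lower, E2f1 among the lower ones. Over all genes tested in the class 1.45% were called higher and 2.58% lower. With 1 library left out, 0 to 2 of the 13 were called lower. Cdk6, a cyclin-dependent kinase of early G1, was called higher (506, 579, 566 and 548 CPM against 438, 425 and 416 CPM, log2 fold change 0.37), and the D-type cyclins Ccnd1 and Ccnd2 were called lower. The calls of Cdk6, Ccnd1 and Ccnd2 held in 14, 15 and 14 of 23 alternatives. All 3 were lost with the replicate block (adjusted p = 0.0950, 0.0634 and 0.0547) and without MxCre replicate 2 or 3, Ccnd1 also without MxCre replicate 1, and Cdk6 also with library totals as the scaling (adjusted p = 0.09999) and with no filter on low counts (adjusted p = 0.0866).

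Of the other lists, where 4.02% of all genes tested in the class were called, TNF receptor signalling had 1 of 34 called, the lymphotoxin beta gene Ltb, at 31.3, 24.7, 16.1 and 13.1 CPM against 40.9, 54.8 and 59.4 CPM (log2 fold change -1.28, adjusted p = 0.0119), with a list median of -0.01. Ltb was not called without MxCre replicate 2 or 3 or in the Hlf and Mecom cluster alone. The NF-kB list had 1 of 31 called, Ccnd1, with a median of -0.09, and none without any 1 of the MxCre mice or without Dnmt3a;Tnfr2KO replicate 2. Of 19 DNA methylation genes edgeR called none and DESeq2 2, with 3 at an unadjusted p below 0.05. Neither tool called any of 40 oxidative phosphorylation, 10 HoxA and HoxB or 27 immediate early genes. Of these 2, 3 and 4 had an unadjusted p below 0.05, where 2160 of 11803 genes tested in the class did. Cytokine receptors had 3 of 27 higher and 3 lower, with the shared beta chain Csf2rb at 36.6 ± 12.05 CPM (SD, n = 4) against 18.7 ± 1.92 CPM (SD, n = 3; log2 fold change 0.95). Without MxCre replicate 3 edgeR called none of the cytokine receptors, and in the Hlf and Mecom cluster alone 1 was called.

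**Figure D5:**
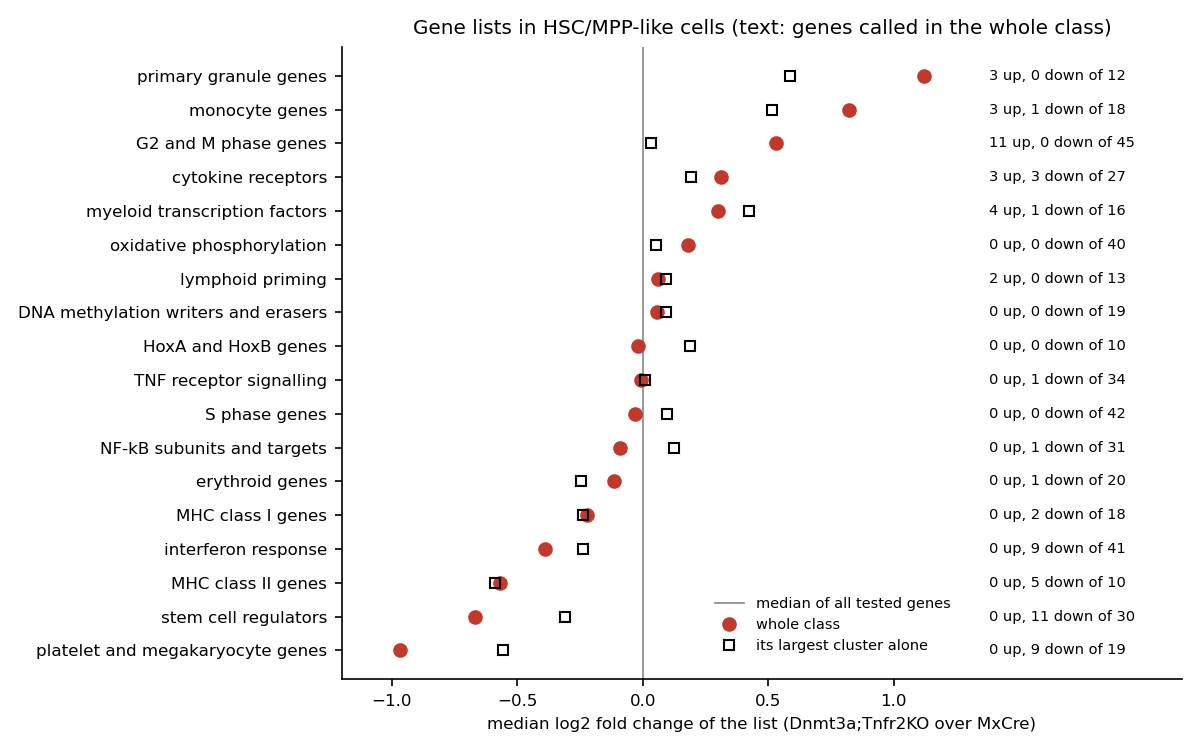
Median log2 fold change (x axis) of 18 gene lists in the HSC/MPP-like class, as circles for the whole class and squares for the cluster led by Hlf and Mecom alone, with the number of members called. The MHC class II median was -0.57 over 10 tested members in the whole class and -0.59 over 8 in the cluster alone. The G2 and M phase median was near 0 in the cluster alone.

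Of further genes in the class, chosen after their values were seen, Mycn was at 12.2, 12.04, 6.78 and 6.89 CPM against 25.1, 57.3 and 71.5 CPM, Aldh1a1, a retinoic acid synthesis enzyme, at 11.1 ± 5.83 CPM (SD, n = 4) against 59.6 ± 11.8 CPM (SD, n = 3), and Tnip3 at 9.95 ± 1.31 CPM (SD, n = 4) against 45.0 ± 12.6 CPM (SD, n = 3). Tcf15, a transcription factor of quiescent stem cells, was at 5.46, 5.81, 1.40 and 3.48 CPM against 12.3, 20.4 and 22.99 CPM. Igsf6, a myeloid surface gene, was at 26.6, 21.1, 44.9 and 34.5 CPM against 11.3, 8.01 and 4.37 CPM. All 5 were called and none overlapped between groups, where 17.1% of all tested genes did not overlap. Tgm2, a transglutaminase, was at 2.01, 2.44, 5.61 and 2.98 CPM against 12.1, 23.1 and 31.8 CPM (log2 fold change -2.87, SE 0.32, adjusted p = 5.24e-05).

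The remaining classes gave fewer calls. Early multipotent progenitors had 38 of 12560 called (0.303%), granulocyte progenitors 41 of 12487 (0.328%), monocyte progenitors 32 of 12378 (0.259%), megakaryocyte progenitors 39 of 10030 (0.389%), erythroid progenitors 7 of 11112 (0.063%) and basophil/mast progenitors 7 of 8722 (0.0803%). The megakaryocyte fit left out Dnmt3a replicate 4 and the basophil/mast fit Dnmt3a replicate 1, each with fewer than 20 cells of the class. The difference between classes in the number of calls was not tested, and cell numbers per library differ between classes.

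In granulocyte progenitors Gng11, a G protein gamma subunit of megakaryocytes and stem cells, was at 9.08 against 27.02 CPM (log2 fold change -1.56, adjusted p = 0.0255), a call kept in 18 of 22 alternatives. In monocyte progenitors Lrmda was at 11.5 against 21.3 CPM (log2 fold change -0.90, adjusted p = 0.00157), and Tnfrsf14 at 10.8 against 1.78 CPM. In megakaryocyte progenitors the globin gene Hbb-bs was at 18.7 against 76.7 CPM (log2 fold change -2.19, adjusted p = 0.0293) and Hba-a1 was also called lower, with a log2 fold change of -2.04. The MxCre mean of Hbb-bs was set by MxCre replicate 3, at 143 CPM against 45.9 and 40.9 CPM in the other 2 mice, and Hba-a1 was at 36.8 CPM there against 12.8 and 12.5 CPM. Without that mouse the log2 fold changes were -1.34 and -1.28 and both calls were lost (adjusted p = 0.533 and 0.463). Hotairm1, a long noncoding RNA of the HoxA locus, was called lower in megakaryocyte (2.98 against 11.1 CPM, adjusted p = 0.0329) and basophil/mast progenitors (1.81 against 11.2 CPM, adjusted p = 0.0274). The calls held in 14 of 21 and 11 of 17 alternatives and were lost with the replicate block (adjusted p = 0.0937 and 0.275), and the megakaryocyte call was also lost without any 1 of the MxCre mice. In early multipotent progenitors the immunoglobulin heavy chain gene Igha was at 0.132 against 171 CPM, a mean set by MxCre replicate 2 at 512 CPM, and the call was lost without that library.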

How the data were processed

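The deposited matrices hold whole-number UMI counts per gene and cell barcode, made by the authors with Cell Ranger 6.0.0 on GRCm38 after bcl2fastq 2.20.0.422, per the submitters' processing notes; no normalization or cell annotation was used. Barcodes were filtered as stated in the report. Each cell was scored by the share of simulated doublets among its nearest neighbours. The highest-scoring cells were removed at an assumed rate of 0.8% per 1000 cells (2.29 to 6.20% of cells called in the 7 libraries). The cells of all 14 libraries were clustered with scanpy 1.11.5, scikit-learn 1.9.0 and leidenalg 0.10.2 (2000 variable genes, 30 components, 20 neighbours, Leiden resolution 1). A cluster was named when markers of its class, and of no stronger class, were among its 10 leading genes; the last condition was added after the data were seen. Counts were summed per mouse, over all cells and per class with at least 20 cells, and fitted with edgeR 4.0.16 (quasi-likelihood, TMM, filterByExpr, 1 fit of 4 groups, two-sided, Benjamini-Hochberg), tested on simulated data; DESeq2 1.42.0 was an alternative. SE is the log2 fold change over the square root of F. Shares were compared by exact permutation over mice. Named genes average 10 or more CPM in one of the groups, without overlap, up to 12 each way over all cells and 5 each way per class, with up to 4 called genes per list and the called chromosome 4 neighbours; others are marked. RefSeq positions (GRCm38.p6) matched 14610 of 15626 tested genes. The members and gene lists were chosen with earlier results of these data known. Same-numbered mice did not deviate together, so replicate numbers were not used as pairs.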

Additional observations from a re-analysis of the deposited data

Results flagged for a closer look

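In groups of 4 mice, a value was set aside for a closer look when its distance to the nearest other mouse took up most of the group's range (above Dixon's critical value). This held for 16 of the 169 groups of 4 values examined. Chance alone marks about 1 in 20 such groups.

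Dnmt3a;Tnfr2KO replicate 4 stood apart for Mtus2 in several sets, being the mouse with the most transcripts of a gene near 0 in the other 3. It was at 1.75 CPM over all cells, 0.807 CPM in HSC/MPP-like, 1.65 CPM in early multipotent, 1.11 CPM in granulocyte, 3.37 CPM in megakaryocyte and 0.404 CPM in erythroid progenitors. These values share cells between the sum and the classes, and all lay below every MxCre mouse.

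The same mouse was highest for Id2 (5.90 CPM) and 4930481A15Rik (3.97 CPM) in HSC/MPP-like cells, for Igha in early multipotent progenitors (0.491 CPM), for Gm43305 (24.9 CPM) and Hbb-bs (33.0 CPM) in megakaryocyte progenitors, and for the share of basophil/mast progenitors (3.76%). Dnmt3a;Tnfr2KO replicate 1 was highest for Gm43305 over all cells (51.3 CPM) and for the share of monocyte progenitors (24.8%), and replicate 3 for Csf2rb in HSC/MPP-like cells (54.5 CPM). Replicate 2 was lowest for Tnip3 in HSC/MPP-like cells (7.998 CPM).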

How the results depend on the processing

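Calls were counted again under each alternative, and the count of called genes moved by more than 1.5 times in these. Over all cells (71) it was 177 with the 7 libraries alone, 427 with DESeq2 and 23 to 137 with 1 library left out. The libraries that moved it were MxCre replicates 2 (35) and 3 (23), Dnmt3a;Tnfr2KO replicates 1 (38), 2 (47) and 3 (43), and Dnmt3a replicate 4 (137). In HSC/MPP-like cells (475) it was 950 with no filter on low counts, 255 with doublets kept, 132 in the largest cluster alone and 91 to 839 with 1 library left out; besides the MxCre mice, leaving out Dnmt3a;Tnfr2KO replicates 1 to 4 gave 307, 314, 310 and 287. Without a filter the count was 72 in early multipotent, 84 in granulocyte, 75 in monocyte, 260 in megakaryocyte, 11 in erythroid and 84 in basophil/mast progenitors. DESeq2 gave 59 in early multipotent, 84 in granulocyte, 64 in monocyte and 27 in erythroid progenitors. The megakaryocyte count was 97 with doublets kept and the erythroid count 24 with the 7 libraries alone.

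With 1 library left out, the counts ran from 18 to 43 in early multipotent (lowest without MxCre replicate 1, 24 without MxCre replicate 2, 22 without Dnmt3a;Tnfr2KO replicate 2), 29 to 54 in granulocyte, 16 to 47 in monocyte (16 and 18 without MxCre replicates 1 and 2), 16 to 62 in megakaryocyte (21 and 16 without MxCre replicates 2 and 3, 62 without Dnmt3a replicate 3), 1 to 21 in erythroid (1 and 3 without MxCre replicates 1 and 2, 2 without Dnmt3a;Tnfr2KO replicate 1, 21 without Dnmt3a replicate 4) and 1 to 10 in basophil/mast progenitors (1 without MxCre replicate 1). Each of these fits also held fewer samples, and the cause of the moves was not tested.

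Directions reversed for few values, none of them called except Cdca8. The basophil/mast share ran from -0.128 to 0.696 percentage points (-0.128 without Dnmt3a;Tnfr2KO replicate 4) and the B-lymphoid progenitor share from -0.0698 to 0.0315 (0.0315 without MxCre replicate 3). Cd74 over all cells was 0.22 on the log2 scale without MxCre replicate 1, 0.17 and 0.19 without Dnmt3a;Tnfr2KO replicates 3 and 4, and 0.0688 with at least 2000 UMIs per cell, with a lowest value of -0.499 without Dnmt3a;Tnfr2KO replicate 1. Dnmt3a over all cells ran from -0.127 to 0.0615, the highest without MxCre replicate 3. In the largest HSC/MPP-like cluster alone Cdca8 was at -0.0872, Tnfrsf1a at -0.0470 and Dnmt3a at 0.00432.

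Replicate numbers were tried as a replicate block although the labels do not say what they share. The correlations of same-numbered mice were 0.101, -0.245 and -0.203. With the block, 63 genes were called over all cells, 337 in HSC/MPP-like, 31 in early multipotent, 54 in granulocyte, 36 in monocyte, 31 in megakaryocyte, 6 in erythroid and 6 in basophil/mast progenitors.

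The alternatives with Dnmt3a replicates 2, 3 and 4 or a Dnmt3a;Tnfr1KO replicate left out, and the largest cluster alone, were added after seeing the data. With 4 mice against 3, a share at the smallest possible p passes the adjustment only when most classes reach that p, and genes at a few UMIs per mouse carry wide errors.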

Other observations

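Further genes of the HSC/MPP-like class, chosen after their values were seen, were called with no overlap between groups. S100a6, a calcium-binding protein gene, was at 106 ± 15.9 CPM (SD, n = 4) in Dnmt3a;Tnfr2KO and 245 ± 39.7 CPM (SD, n = 3) in MxCre mice. Nfia, a transcription factor gene, was at 13.7 ± 3.26 CPM (SD, n = 4) against 36.6 ± 8.38 CPM (SD, n = 3), Mmrn1, the platelet protein multimerin, at 4.03 ± 2.10 CPM (SD, n = 4) against 24.1 ± 13.5 CPM (SD, n = 3), and Nupr1, a stress-induced nuclear protein gene, at 14.7 ± 2.68 CPM (SD, n = 4) against 64.7 ± 32.3 CPM (SD, n = 3).

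Genes higher in Dnmt3a;Tnfr2KO cells of the class included Ccl9, a myeloid chemokine, at 113 ± 14.6 CPM (SD, n = 4) against 44.8 ± 18.7 CPM (SD, n = 3), Fcgr2b, the inhibitory Fc gamma receptor, at 20.98 ± 2.997 CPM (SD, n = 4) against 8.76 ± 3.03 CPM (SD, n = 3), and Plac8, a gene of multipotent progenitors, at 1659 ± 154 CPM (SD, n = 4) against 968 ± 292 CPM (SD, n = 3). Their means in the Dnmt3a group were 124, 17.1 and 1605 CPM.

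Over all cells, chromosome 18 had 7 of 384 tested genes called (1.82%), Iigp1 among them, and chromosome 4 had 25 of 885 (2.82%). Of all tested genes 0.454% were called.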
